A study of Drosophila melanogaster with 34 samples.

Results

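The white gene (w) and 7 other eye pigment genes of Drosophila melanogaster were followed in messenger RNA of embryos and in small RNA from the male reproductive tract and sperm. The 8 genes, w, st, bw, v, cn, ry, Pu and Hn, were taken from a table of 13931 genes by name, w for its embryo levels in the same table and the others for their part in making or carrying eye pigment. The embryo levels of w are therefore described and not tested, while the other 7 genes were tested among 10371 genes that passed a filter on low counts. All 8 passed that filter, w only through the embryos of aub mutant parents, since the 5 wild-type (WT) embryo libraries together held 11 counts of it.

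The 12 embryo libraries comprised 5 with the label paternal aub, 2 with the label maternal aub and 5 WT. The aub gene encodes a PIWI-clade protein that binds the small RNAs called piRNAs, and the label gives the parent that carried its mutation. The labels give neither the aub alleles, the strains nor the genotype of the embryos themselves. The column names of all 12 libraries call the embryos old, and no age is given. A batch is known only from a mark in the column names: 2 paternal aub, both maternal aub and 2 WT libraries carry it and are called batch 2, and the other 6, with 3 paternal aub and 3 WT libraries, are called batch 1. The 3 aub columns of batch 1 name no parent and were taken as paternal because both maternal samples have columns of their own. The small RNA samples used were 3 sperm libraries each of aub mutant, piwi mutant and WT males, and from WT males 4 PIWI immunoprecipitates (IP) and 2 total RNA libraries of seminal vesicle and 1 testis library for each of the groups T1, T2 and T3. Nothing in the labels says whether libraries of a group came from separate crosses, so p-values measure the spread between these libraries, which may be technical.

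Fly eyes carry brown ommochromes, made from tryptophan, and red pteridines, made from GTP. The products of w, st and bw are subunits of ABC transporters in the membrane of pigment granules: w pairs with st to carry ommochrome precursors and with bw to carry pteridine precursors. Both pathways also run outside the eye, in the larval Malpighian tubule among other tissues, and pteridine synthesis supplies the cofactor of aromatic amino acid hydroxylases. Many laboratory stocks carry a mutant allele of w, and a small functional w gene is a common marker on inserted transposons. Recessive alleles of cn and bw are common markers of second chromosomes, where aub also lies. Which alleles or marked insertions of w, cn and bw these flies carried is not given in the labels.

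On the Release 6 genome, w (FBgn0003996) spans positions 2790599 to 2796466 of chromosome X, and v (FBgn0003965) 10923972 to 10925631 of the same chromosome. On 3L, st (FBgn0003515) spans 16497651 to 16500460 and Hn (FBgn0001208) 7760453 to 7763166. The ry gene (FBgn0003308) lies on 3R, at 13032528 to 13038020. The remaining members lie on 2R: cn (FBgn0000337) at 7782797 to 7785067, bw (FBgn0000241) at 23527805 to 23538499 and Pu (FBgn0003162) at 21175315 to 21182608. Levels are given as CPM, a count scaled to the total of its library, on library sizes scaled by the trimmed mean of M values (TMM), and are compared between libraries only, not between genes, because no transcript lengths were used. In bulk embryos, fewer cells of a type and less RNA per cell cannot be told apart.

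The w transcript was higher in embryos of aub mutant parents, most of all those of aub mutant mothers. In batch 2, w stood at 4.05 and 5.05 CPM in paternal aub embryos, at 16.2 and 18 CPM in maternal aub embryos and at 0.561 and 0.393 CPM in WT embryos. The 3 groups did not overlap, and both maternal aub libraries lay above both paternal aub ones. These levels rest on 110 counts in paternal aub, 303 in maternal aub and 4 in WT embryos. The fitted log2 fold change was 3.36 ± 0.83 (SE) for paternal aub over WT and 5.25 ± 0.80 for maternal aub over WT, with 2 libraries a group. Because the WT counts are so few, the ratio of summed counts is wide: 11.4 (95% exact interval 4.32 to 42.5) for paternal aub over WT and 39.3 (15.2 to 145) for maternal aub over WT. The paternal aub level was 0.29 (0.231 to 0.362) of the maternal aub level, a log2 difference of -1.89 ± 0.55. These intervals cover counting error only, and no p is given because these levels chose the gene.

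In batch 1, w was more variable. It stood at 4.35, 1.96 and 0.631 CPM in paternal aub embryos, against 0.741, 0.345 and 0.332 CPM in WT embryos. The groups overlapped, since the lowest paternal aub library lay under the highest WT library. Summed over libraries there were 40 counts in paternal aub and 7 in WT embryos, a ratio of 4.93 (2.18 to 13). The fitted log2 fold change was 2.27 ± 0.68, and 1.49 without the highest paternal aub library. WT embryos of both batches were low in w, at 0.477 ± 0.119 CPM in batch 2 (SD, n = 2) and 0.473 ± 0.232 CPM in batch 1 (SD, n = 3), a log2 difference of -0.07 ± 1.03.

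**Figure D1:**
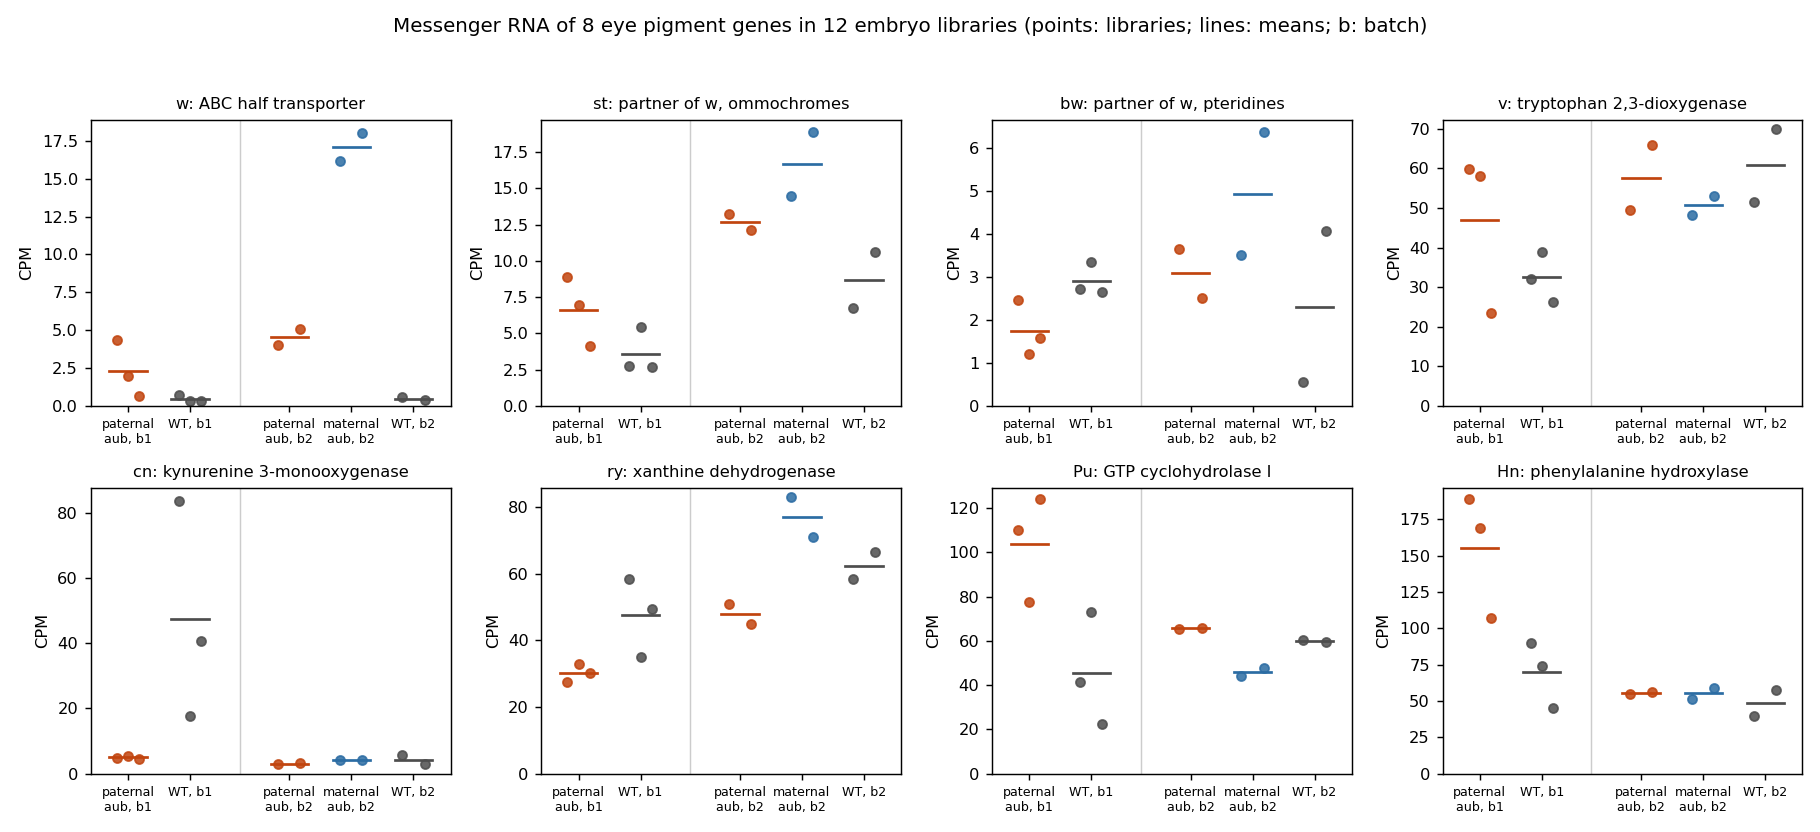
Messenger RNA level in CPM (linear axes from 0) of the 8 pigment genes in each of 12 embryo libraries, grouped by parent and batch (b1, b2), with points for libraries and lines for means. In batch 2, w at 16.2 and 18 CPM in maternal aub embryos stands above all other libraries, and cn is above 17 CPM in the 3 WT libraries of batch 1 alone.

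Genes around w were examined next. The table holds 4 other genes within 50 kb of w, of which Syx4, kirre and CG32795 passed the filter on low counts. Their log2 fold changes were -0.26 to 0.09 for paternal aub over WT and -0.44 to 0.17 for maternal aub over WT in batch 2. There edgeR's test called none of them, beside 0.0193% of all genes for paternal aub and 0.0675% for maternal aub. The kirre gene spans w, and the sources used here do not say whether counting used strand, so reads of kirre introns could in principle be counted to w. Its level in batch 2 was 33.2 CPM in paternal aub, 35.2 CPM in maternal aub and 31.7 CPM in WT embryos. In batch 1, Syx4 and CG32795 rose in paternal aub embryos, each by 0.93 (adjusted p = 0.032 and 0.00785, edgeR), while kirre had 0.51 ± 0.27 (adjusted p = 0.139, edgeR). These calls stand beside 43.5% of all genes called in that comparison, so they mark nothing particular to the genes around w.

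Among the transporter partners of w, st had the nearest pattern to it, without passing the test against WT. In batch 2, st stood at 13.2 and 12.1 CPM in paternal aub, 14.5 and 18.9 CPM in maternal aub and 6.73 and 10.6 CPM in WT embryos. Neither aub group overlapped WT, yet the log2 fold changes, 0.48 ± 0.44 for paternal aub and 0.88 ± 0.44 for maternal aub, had an adjusted p of 1 in edgeR's test. In batch 1, st stood at 8.89, 6.93 and 4.1 CPM in paternal aub embryos, against 2.72, 5.41 and 2.66 CPM in WT embryos. The groups overlapped, and the log2 fold change of 0.80 ± 0.39 had an adjusted p of 0.106 (edgeR). It passed the threshold without the second WT library of batch 1 (1.29, adjusted p = 0.0225, edgeR).

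The other partner, bw, was low throughout and rested on few counts. It had 2.46, 1.2 and 1.58 CPM in paternal aub embryos of batch 1, against 2.72, 3.34 and 2.66 CPM in WT embryos. Every paternal aub library lay under every WT library, with a log2 fold change of -0.77 ± 0.54 that did not pass the test (adjusted p = 0.268, edgeR). In batch 2 it had 3.64 and 2.52 CPM in paternal aub, 3.52 and 6.36 CPM in maternal aub and 0.561 and 4.06 CPM in WT embryos. The lower WT value is 1 count in the shallowest library, where 3 counts equal 1.77 CPM. The log2 fold change of paternal aub over WT in batch 2 was 0.09 ± 0.64, and 2.39 without the deeper WT library. For maternal aub over WT it was 0.77 ± 0.62, and 3.09 without that library.

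Of the ommochrome enzymes, cn was high in the WT embryos of batch 1 and low in every other group. It encodes kynurenine 3-monooxygenase, which makes the ommochrome precursor 3-hydroxykynurenine. In batch 1, cn had 4.92, 5.42 and 4.58 CPM in paternal aub embryos, against 83.5, 17.8 and 40.6 CPM in WT embryos. The groups were far apart, and the WT libraries also differed widely among themselves. The log2 fold change was -3.24 ± 0.46 (adjusted p = 8.7e-05, edgeR), and -2.53 without the highest WT library. In batch 2, cn had 2.83 and 3.2 CPM in paternal aub, 4.26 and 4.17 CPM in maternal aub and 5.61 and 3.01 CPM in WT embryos. There the log2 fold changes were -0.35 ± 0.63 for paternal aub and 0.12 ± 0.62 for maternal aub, both with an adjusted p of 1 (edgeR). Within WT, cn was lower in batch 2 than in batch 1 by a log2 difference of -3.59 ± 0.59 (adjusted p = 2.9e-04, edgeR).

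The difference in cn between paternal aub and WT embryos was therefore not the same in both batches. It changed by 2.89 ± 0.77 on the log2 scale, batch 2 minus batch 1 (adjusted p = 0.0163, edgeR). This call was lost without the second paternal aub library of batch 2 (2.77, adjusted p = 0.0852, edgeR) or without the second WT library of batch 2 (2.33, adjusted p = 0.143, edgeR). The difference was 2.17 without the highest WT library of batch 1. Of all genes tested, 20.2% were called for this difference between batches. Among the 7 members other than w, cn was the 1 called.

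The WT libraries of batch 1, highest in cn, were also highest in the summed level of 15 maternal transcripts, such as osk, exu and CycB, which mothers load into eggs and embryos clear. This sum was 315 to 634 CPM in paternal aub embryos of batch 1 and 1666 to 4331 CPM in WT embryos of batch 1. In batch 2 it was 818 to 875 CPM in paternal aub, 506 to 777 CPM in maternal aub and 430 to 595 CPM in WT embryos. Single genes carried much of this sum. In WT embryos CycB averaged 1087 ± 685 CPM in batch 1 and 60 ± 65.1 CPM in batch 2 (SD). Against the direction of the sum, gcl averaged 153 ± 23 CPM in batch 1 and 260 ± 18.1 CPM in batch 2. Paternal aub embryos of batch 2, at 818 and 875 CPM of maternal transcripts, had 2.83 and 3.2 CPM of cn. Those of batch 1, at 315 to 634 CPM, had 4.58 to 5.42 CPM of cn. Within WT of batch 1, the library with the most cn (83.5 CPM) had a maternal sum of 1821 CPM. Those with 40.6 and 17.8 CPM of cn had 4331 and 1666 CPM. In batch 1, 12 of the 15 maternal transcripts fell in paternal aub embryos and 0 rose, beside 43.5% of all genes called in either direction. Segmentation genes of early embryos, 13 in all, summed to 219 to 320 CPM in paternal aub and 341 to 697 CPM in WT embryos of batch 1, with 7 lower and 1 higher. Of 11 muscle and nerve genes of late embryos 5 rose and 0 fell, and 5 of 11 is a share near the 43.5% of all genes. The largest rise among those called was that of Syt1, by 2.62 ± 0.30 (adjusted p = 2.5e-05, edgeR). The sum of the 11 was 40464 to 60316 CPM in paternal aub and 16548 to 42673 CPM in WT embryos, and these ranges overlapped. The part of these 3 lists in the batch 1 results of cn and the other members was not tested.

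**Figure D2:**
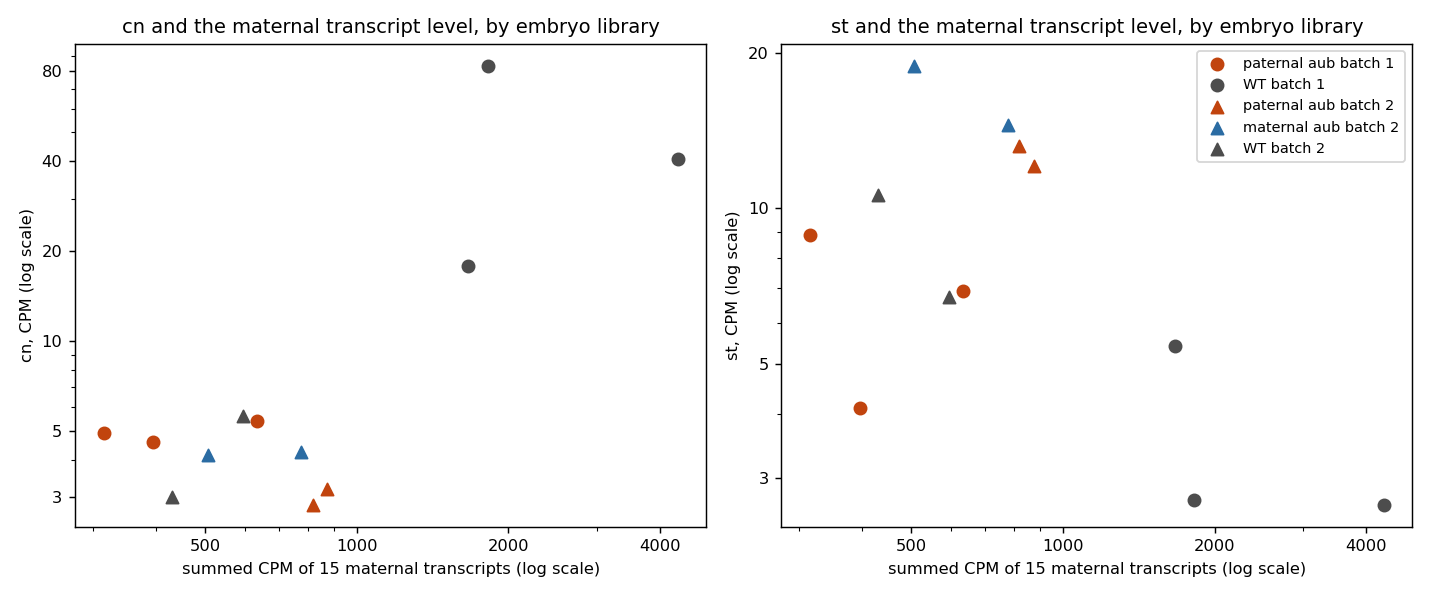
Level of cn (left) and st (right) against the summed level of 15 maternal transcripts, both in CPM on log axes, with 1 point per embryo library, colours for parent and circles or triangles for batch 1 or 2. The 3 WT libraries of batch 1, at 1666 to 4331 CPM of maternal transcripts, hold the highest cn levels, 17.8 to 83.5 CPM.

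The enzyme upstream of cn, tryptophan 2,3-dioxygenase, is encoded by v. It had 59.8, 58 and 23.4 CPM in paternal aub embryos of batch 1, against 32.1, 38.9 and 26.3 CPM in WT embryos. The groups overlapped through the third paternal aub library, and the log2 fold change was 0.53 ± 0.32 (adjusted p = 0.193, edgeR). Without that library it was 0.85 (adjusted p = 0.014, edgeR). In batch 2, v had 49.4 and 66 CPM in paternal aub, 48.2 and 53.1 CPM in maternal aub and 51.6 and 69.9 CPM in WT embryos. All 3 groups overlapped there, with log2 fold changes of -0.08 ± 0.38 for paternal aub and -0.27 ± 0.39 for maternal aub over WT.

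At the head of the pteridine pathway, Pu rose in paternal aub embryos of batch 1. It encodes GTP cyclohydrolase I. Its level was 110, 77.7 and 124 CPM in paternal aub embryos, against 41.5, 73.1 and 22.3 CPM in WT embryos. The groups did not overlap, though the second libraries of both groups lay close together. The log2 fold change was 1.17 ± 0.33 (adjusted p = 0.0102, edgeR), and it stayed past the threshold when any 1 of the 12 libraries was left out. In batch 2, Pu had 65.4 and 65.8 CPM in paternal aub, 44 and 47.6 CPM in maternal aub and 60.6 and 59.3 CPM in WT embryos. Paternal aub lay just above WT and maternal aub below it, with log2 fold changes of 0.13 ± 0.40 and -0.39 ± 0.41 that did not pass the test (adjusted p = 1 for both, edgeR).

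Hn, which encodes phenylalanine hydroxylase, an enzyme that uses the pteridine cofactor, followed Pu in batch 1. Paternal aub embryos had 189, 169 and 107 CPM, against 90.1, 74.2 and 44.9 CPM in WT embryos. Every paternal aub library lay above every WT library. The log2 fold change was 1.15 ± 0.29 (adjusted p = 0.00485, edgeR) and held with any 1 library left out. In batch 2, Hn had 54.8 and 56 CPM in paternal aub, 51.6 and 59.2 CPM in maternal aub and 39.8 and 57.8 CPM in WT embryos. These groups overlapped, with log2 fold changes of 0.17 ± 0.35 for paternal aub and 0.16 ± 0.35 for maternal aub.

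Xanthine dehydrogenase, which oxidises pteridines and makes uric acid, is encoded by ry. Its level was 27.6, 32.8 and 30.1 CPM in paternal aub embryos of batch 1, against 58.3, 35.1 and 49.5 CPM in WT embryos. The groups did not overlap, and the log2 fold change of -0.65 ± 0.24 was just past the threshold (adjusted p = 0.0354, edgeR). That call is not firm: it held in 2 of the 12 fits that left out a library, with adjusted p between 0.00403 and 0.143 (edgeR). In batch 2, ry had 50.8 and 44.8 CPM in paternal aub, 83 and 71.1 CPM in maternal aub and 58.4 and 66.5 CPM in WT embryos. The order was maternal aub, WT and paternal aub, without overlap. Paternal aub differed from maternal aub by a log2 fold change of -0.69 ± 0.28 (adjusted p = 1, edgeR). When batch 2 was fitted alone this difference was called (-0.72, adjusted p = 0.0256, edgeR).

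**Figure D3:**
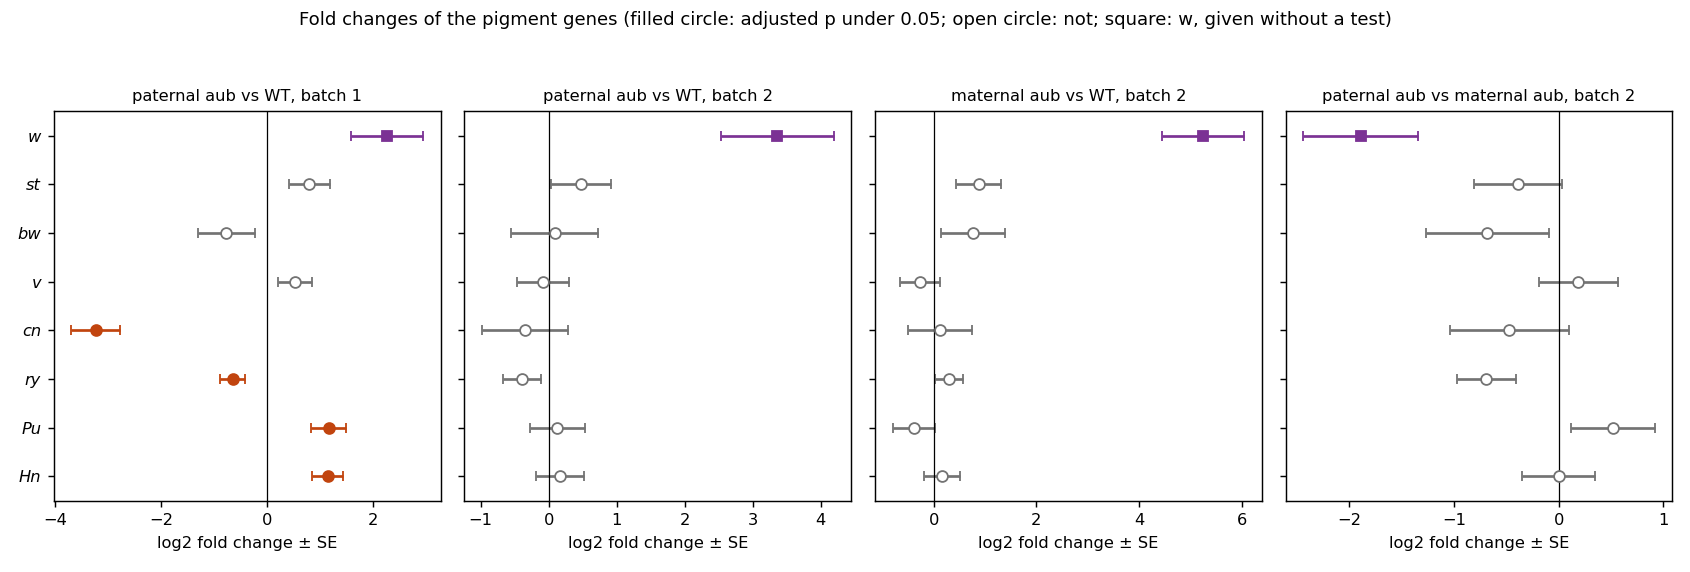
Log2 fold changes with SE of the 8 pigment genes in 4 comparisons between embryo groups, each panel with its own axis. Filled circles passed an adjusted p of 0.05, open circles did not, and the square is w, given without a test. In batch 1, cn at -3.24 and ry at -0.65 are below 0 and Pu at 1.17 and Hn at 1.15 above it, and no member besides w departs from 0 by more than 0.88 in batch 2.

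Counted together, 4 of the 7 members other than w were called in batch 1, Pu and Hn up and cn and ry down, beside 43.5% of all genes tested. With 2349 genes higher and 2167 lower, change was common in that comparison, and 4 of 7 is a share not far from the background. Scaling by total counts instead of TMM set the median log2 fold change of all genes at -0.15, against 0.07 with TMM, and with it 1806 genes were higher and 2745 lower, while the signs of the 7 members did not change. Groups did not overlap for 5 of the 7 members, beside 45.2% of all genes.

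In batch 2, edgeR called 0 of the 7 members in each comparison in the fit of all 12 libraries. For paternal aub over WT, 0.0193% of all genes were called and groups did not overlap for 3 of the 7 members, beside 38.8% of all genes. For maternal aub over WT, 0.0675% were called, and 3 of 7 members did not overlap, beside 47.8% of all genes. For paternal over maternal aub, 0% were called by edgeR, where 230 genes had an unadjusted p under 0.05 and DESeq2 called 5. In that comparison 4 of 7 members did not overlap, beside 46.5% of all genes. The intervals of the members in batch 2 remain wide, and they rest on a spread shared with the libraries of batch 1. Batch 2 fitted alone called 48 genes for paternal aub over WT, 211 for maternal aub over WT and 168 for paternal over maternal aub. Of the 7 members that fit called ry alone, for paternal over maternal aub. The calls in batch 2 therefore depend on which libraries set the spread. For maternal aub over WT, the approximate 95% interval of the log2 fold change runs from -0.46 to 1.99 for bw and from 0.01 to 1.74 for st. The unadjusted p of st was 0.0653 (edgeR), which is not a call.

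WT embryos themselves differed between batches in 2 of the 7 members, beside 40.1% of all genes tested. One was cn, above, and the other was st, higher in batch 2 by a log2 difference of 1.25 ± 0.43 (adjusted p = 0.0305, edgeR). The mean of st in WT embryos was 8.67 ± 2.73 CPM in batch 2 (SD, n = 2) and 3.59 ± 1.57 CPM in batch 1 (SD, n = 3). The call on st was lost without WT library 1 or 3 of batch 1 or library 2 of batch 2, where it was 1.07, 1.09 and 0.86. For v the difference of 0.91 ± 0.35 lay at the threshold (adjusted p = 0.0515, edgeR).

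The remaining genes of both pathways were counted by lists that also hold the members, and w was left out of each count. Of 6 ommochrome genes tested, 0 rose and 2 fell in paternal aub embryos of batch 1, cn and cd, so that 2 of 6 were called, beside 43.5% of all genes. The median log2 fold change was -0.02 beside 0.07 over all genes. The cd gene encodes a haem peroxidase that acts in the last steps of ommochrome synthesis, and it averaged 0.5 ± 0.175 CPM in paternal aub and 4.92 ± 2.45 CPM in WT embryos (SD, n = 3 each). Its log2 fold change was -3.22 ± 0.67 (adjusted p = 0.00165, edgeR). In both WT libraries of batch 2 cd had 0 counts.

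Of 16 pteridine and cofactor genes tested, 2 rose and 4 fell in paternal aub embryos of batch 1, with a median of -0.41. Those called, 6 of 16, stand beside 43.5% of all genes. Those that rose were Hn and Pu. Besides ry, those that fell were se, which acts in drosopterin synthesis (-2.81 ± 0.80, adjusted p = 0.0118, edgeR), Sptr, the sepiapterin reductase (-1.45 ± 0.44, adjusted p = 0.0146, edgeR), and cin, which acts in molybdenum cofactor synthesis (-0.88 ± 0.34, adjusted p = 0.0477, edgeR). The molybdenum cofactor genes Mocs2A and Mocs2B were listed at 0 in every library.

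Of 19 genes of pigment granule formation and trafficking tested, 1 rose and 2 fell in paternal aub embryos of batch 1, with a median of 0.04, so that 3 of 19 were called beside 43.5% of all genes. These were lt (0.81 ± 0.23, adjusted p = 0.0111, edgeR), dor (-0.74 ± 0.23, adjusted p = 0.0165, edgeR) and car (-0.66 ± 0.24, adjusted p = 0.0355, edgeR), all of which encode parts of the complexes that fuse vesicles with lysosomes. Snapin and Muted were listed at 0 in every library.

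Among 14 transporter genes of the ABCG family, to which w, st and bw belong, 5 rose and 2 fell in paternal aub embryos of batch 1, with a median of 0.14. The 7 of 14 called are a share near the 43.5% of all genes. The steepest rise was that of CG32091, at 43.4 ± 5.35 CPM in paternal aub and 14 ± 5.4 CPM in WT embryos (SD, n = 3 each), a log2 fold change of 1.60 ± 0.27 (adjusted p = 3.4e-04, edgeR). CG5853 (1.43 ± 0.35), CG3164 (1.06 ± 0.26) and Atet (0.97 ± 0.25) rose as well, and CG31121 fell (-1.09 ± 0.27). In none of the 4 lists did edgeR call a gene in any of the 3 comparisons within batch 2 in the fit of all 12 libraries.

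Markers of tissues that use these pathways were counted beside the same 43.5% of all genes called in batch 1. Of 11 Malpighian tubule genes tested 6 rose and 2 fell in paternal aub embryos, and the sum of the list was 343 to 438 CPM in paternal aub and 193 to 309 CPM in WT embryos. In batch 2 that sum was 274 to 277 CPM in paternal aub, 217 to 220 CPM in maternal aub and 258 to 268 CPM in WT embryos. Genes listed as photoreceptor markers summed to 106 to 175 CPM in paternal aub and 50.4 to 59.1 CPM in WT embryos of batch 1, with 4 of 8 tested genes higher and 1 lower. Most of that sum was norpA, at 99 ± 32.8 CPM in paternal aub and 40.2 ± 7.63 CPM in WT embryos (SD, n = 3 each). In batch 2 the sum was 106 to 107 CPM in paternal aub, 95.4 to 101 CPM in maternal aub and 97.4 to 105 CPM in WT embryos. Fat body genes were low in every group, at 5.68 to 7.76 CPM in paternal aub and 9.31 to 24.2 CPM in WT embryos of batch 1, and at 6.48 to 7.68 CPM in paternal aub, 5.05 to 7.12 CPM in maternal aub and 12.3 to 14.5 CPM in WT embryos of batch 2. Follicle cell and yolk genes summed to 11 to 30.1 CPM in paternal aub and 4.95 to 21.7 CPM in WT embryos of batch 1. In batch 2 they summed to 1.82 to 6.95 CPM in paternal aub, 1.97 to 2.79 CPM in maternal aub and 0 to 1.44 CPM in WT embryos. The part of these tissues in the levels of the members was not tested.

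The genes most like w were sought by the Pearson correlation of log2 CPM over the 12 embryo libraries, which share parents and batches, so that r is a description. They were Glyat (r = 0.88), CG18853 (0.87), CG17264 (0.84), CG32641 (0.83) and mthl8 (0.82). Of the members, st came nearest, 13th in rank among all genes tested (r = 0.79), while cn ran the other way (r = -0.49). Over the 6 libraries of batch 2 alone the 5 nearest genes were CG14275, Mtl, CG4757 and Osi18 (r = 0.98 each) and Cad89D (0.97), with st at 0.85.

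Of these, mthl8 separated the parents completely. It encodes a receptor of the Methuselah-like family. It had 14.8, 12 and 12.6 CPM in paternal aub embryos of batch 1, against 0 counts in the 3 WT libraries. In batch 2 it had 14.6 and 17.4 CPM in paternal aub and 20.4 and 20.8 CPM in maternal aub, again against 0 counts in WT embryos. Set against a limit of 3 counts over the WT group, mthl8 was at least 68.4-fold higher in paternal aub embryos of batch 1. By the same limit it was at least 52.8-fold higher in paternal aub and at least 64.5-fold higher in maternal aub embryos of batch 2. In batch 2 both maternal aub libraries lay above both paternal aub ones, in a comparison where groups did not overlap for 46.5% of all genes. The mthl8 gene was picked for its likeness to w in these same libraries and passed the filter on low counts only through its aub libraries. Its likeness to w is therefore no separate result.

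CG18853 lies 44 kb from cn on 2R. It had 2.46, 1.36 and 0 CPM in paternal aub embryos of batch 1, against 0 counts in WT embryos, a level at least 6.32-fold higher over the group. In batch 2 it had 2.43 and 1.91 CPM in paternal aub, 1.25 and 2.41 CPM in maternal aub and 0 and 0.131 CPM in WT embryos. The single WT count leaves the ratio wide, at 19 (3.25 to 768) for paternal aub and 14.5 (2.4 to 594) for maternal aub over WT. Around cn, a set added after its values were seen, 15 genes within 50 kb were tested. In paternal aub embryos of batch 1, 4 of them rose and 5 fell, beside 43.5% of all genes called. CG18853, chosen for its likeness to w, is 1 of the 4 that rose, and it passed the filter on low counts only through its aub libraries. In batch 2 edgeR called 0 of the 15 in either aub group, beside 0.0193% of all genes for paternal aub and 0.0675% for maternal aub.

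**Figure D4:**
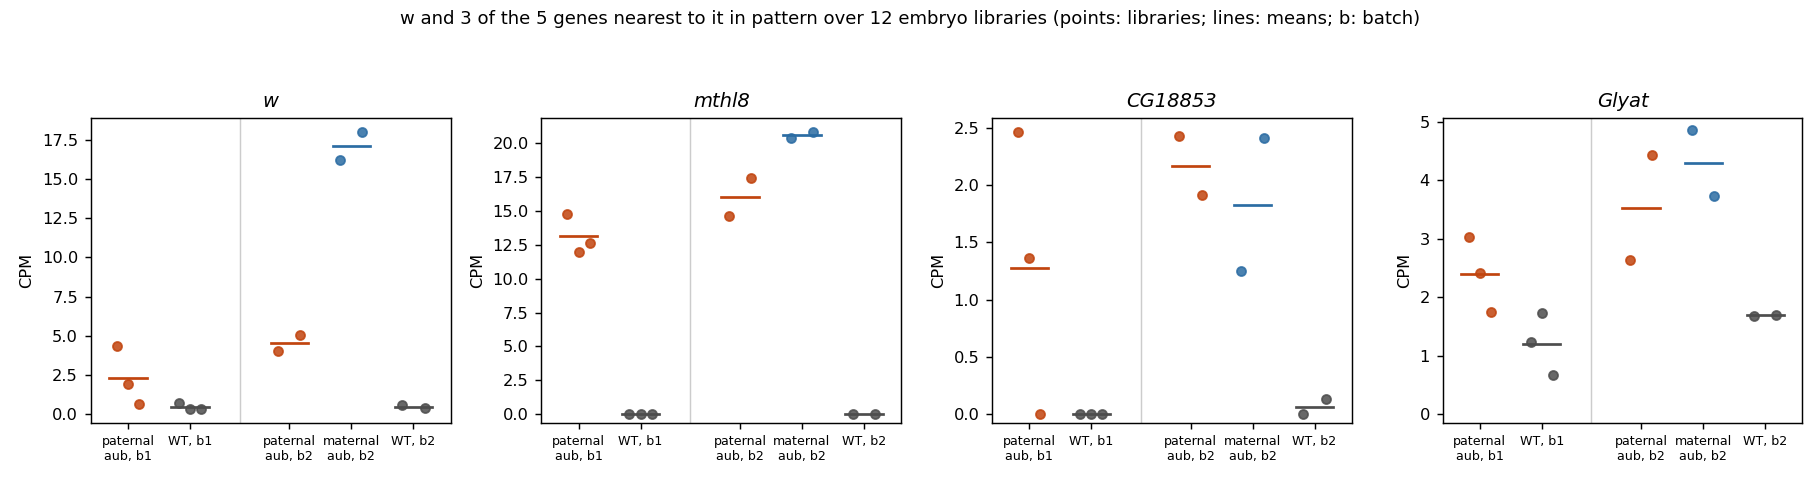
Level in CPM (linear axes) of w and of 3 of the 5 genes nearest to it in pattern, mthl8, CG18853 and Glyat, in 12 embryo libraries grouped by parent and batch (b1, b2), with points for libraries and lines for means. No WT library holds a count of mthl8, whose aub libraries lie between 12 and 20.8 CPM, while w spreads from 0.631 to 18 CPM over its aub libraries.

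Small RNA counts were not used by the rule that chose the members. Sense counts over exons and untranslated regions of w were 10, 11 and 4 in aub sperm (1.25, 1.03 and 0.506 CPM) and 1, 0 and 1 in WT sperm (0.15, 0 and 0.137 CPM). The groups did not overlap. Neither did they in 17.9% of the 10804 small RNA rows deep enough to test. The share among rows as sparse as those of w was not taken. The ratio of the sums, 25 counts over 2, was 8.1 with an exact interval of 2.02 to 70.6. In piwi sperm there were 3, 2 and 3 counts, a ratio to WT sperm of 3.28 (0.654 to 31.7). No w row passed the filter on low counts. In the fit with no filter the exon row had a log2 fold change of 2.53 ± 1.18 for aub over WT (adjusted p = 0.597, edgeR), which is not a call. No antisense count fell on w in any sperm library, which, taken as a limit of 3 counts over the group, allows up to 0.113 CPM in aub, 0.142 CPM in piwi and 0.174 CPM in WT sperm.

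Of 40 rows of the members, sense and antisense, 2 were deep enough to test in sperm, the sense exon rows of bw and ry. For all small RNA rows, 1.84% were called for aub over WT and 0.898% for piwi over WT, and of these 2 rows 0 were. Sense small RNA of bw was 1.5, 1.58 and 2.4 CPM in aub sperm, 0.398, 1.15 and 1.03 CPM in piwi sperm and 0.899, 3.94 and 4.66 CPM in WT sperm. The exon row had a log2 fold change of -1.02 ± 0.45 for aub (adjusted p = 0.295, edgeR) and of -1.70 ± 0.50 for piwi over WT (adjusted p = 0.169, edgeR). For ry there were 2.62, 3.45 and 3.54 CPM in aub sperm, 1.99, 1.27 and 1.44 CPM in piwi sperm and 0.749, 4.54 and 4.66 CPM in WT sperm. Its log2 fold changes were 0.05 ± 0.47 for aub (adjusted p = 0.984, edgeR) and -0.84 ± 0.52 for piwi over WT (adjusted p = 0.589, edgeR). The first WT sperm library was the lowest of its group for both genes on the sense strand. Antisense counts of bw were 0, 5 and 10 in aub sperm, 0, 1 and 2 in piwi sperm and 5, 2 and 5 in WT sperm. In the 4 PIWI IP libraries of seminal vesicle they were 15, 10, 6 and 3.

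The other members had little small RNA in sperm. Hn had 12 sense counts in aub, 3 in piwi and 24 in WT sperm, and Pu had 5 in aub, 6 in piwi and 18 in WT sperm. Their ratios to WT sperm were 0.324 (0.148 to 0.674) for Hn and 0.18 (0.0522 to 0.503) for Pu in aub sperm, and 0.102 (0.0197 to 0.337) for Hn and 0.273 (0.0888 to 0.718) for Pu in piwi sperm. These intervals cover counting error only, and for Pu 14 of the 18 WT counts lay in the first WT sperm library. The WT libraries of Pu overlapped those of aub and of piwi sperm. No row of either gene was deep enough to test. In the fit with no filter, the exon rows of Hn and Pu were not called for aub over WT (adjusted p = 0.487 and 0.714, edgeR). They were not called for piwi over WT either (adjusted p = 0.191 and 0.654, edgeR). The genes st and v had 7 sense counts or fewer in each sperm group, and cn had 0.

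In seminal vesicle, sense small RNA of w was 1.28, 3.26, 3.95 and 1.27 CPM in PIWI IP libraries and 0.133 and 0.343 CPM in total RNA libraries. The groups did not overlap, as in 47.9% of all small RNA rows with at least 10 counts over these libraries, and the ratio of summed counts was 10.6 (5.23 to 25.1). The lowest IP value is 3 counts in the shallowest of these libraries. For bw, the IP libraries had 4.5, 5.77, 8.16 and 6.77 CPM and total RNA had 0.597 and 0.572 CPM, a ratio of 10.1 (6.35 to 17). For ry the ratio was 4.02 (2.86 to 5.79). With any IP library left out, w stayed between 9.04 and 13.6, bw between 8.99 and 11.4 and ry between 3.87 and 4.2.

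These ratios have a background: sense small RNA over all coding exons was itself 51024 to 80525 CPM in PIWI IP and 17039 to 21351 CPM in total RNA libraries. The ratios of w and bw lie above this general gap and that of ry near it, with no test of the difference. Hn and Pu rested on a single IP library: their ratios of 3.87 (2.82 to 5.44) and 3.49 (2.33 to 5.38) became 1.48 (0.999 to 2.22) and 1.43 (0.866 to 2.38) without the first. For v, cn and st the ratios were 1.66 (0.912 to 3.17), 1.62 (0.467 to 7.08) and 1.15 (0.479 to 2.96), and these intervals include 1. In WT testis, w had 1, 0 and 2 sense counts in the groups T1, T2 and T3.

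**Figure D5:**
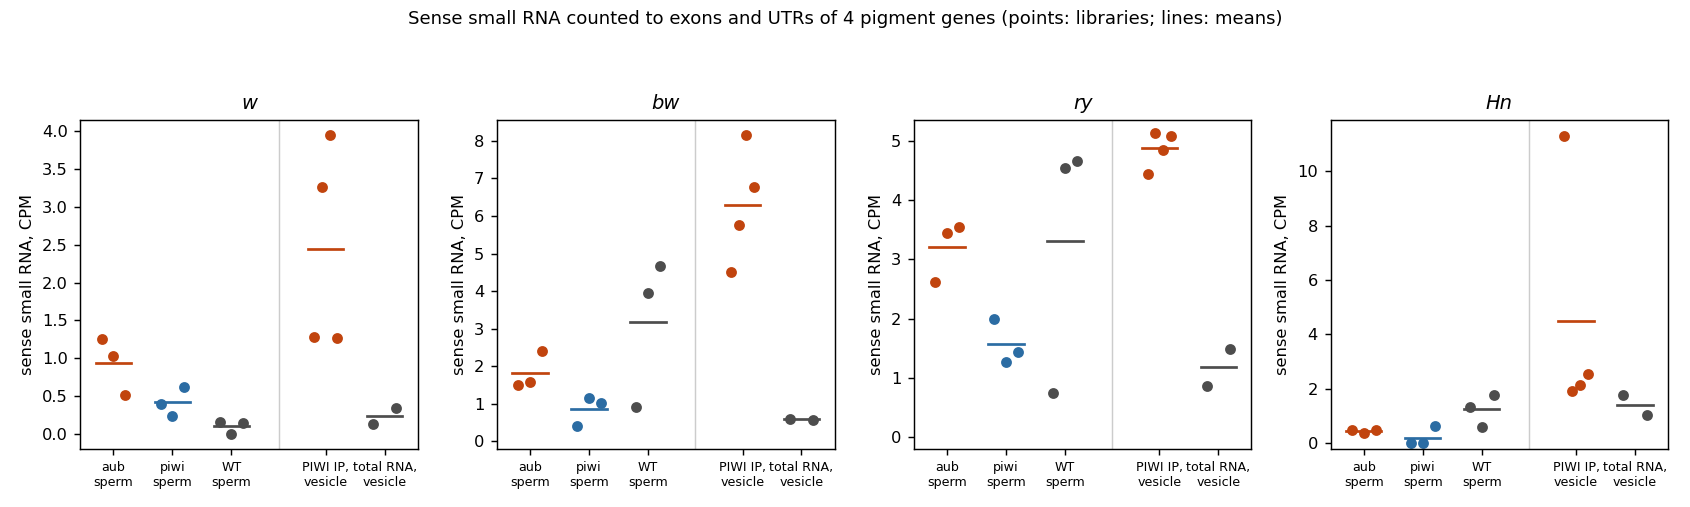
Sense small RNA in CPM (linear axes) over exons and untranslated regions of w, bw, ry and Hn in sperm of aub mutant, piwi mutant and WT males and in PIWI IP and total RNA libraries of seminal vesicle, with points for libraries and lines for means. For w, aub sperm at 0.506 to 1.25 CPM lies above WT sperm at 0 to 0.15 CPM, and 1 IP library of Hn, at 11.3 CPM, stands apart from the other 3.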

How the data were processed

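Every value here comes from whole-number counts that the authors deposited, per gene for embryos and per feature, sense and antisense, for small RNA. Per the submitters' processing notes, the tools included Bowtie 1.2.3, Subread 2.0.0, featureCounts, Trim Galore 0.5.0, SAMtools 1.8 and cutadapt, and the builds were BDGP6 and dm6. Their order and the table each one made are not given in the sources used here, nor are strand use, multiply mapped reads and the library protocol for embryos. Depth was 1690431 to 16289732 counts in embryo libraries, where 3 counts equal 0.184 to 1.77 CPM, and 2363275 to 18728872 in small RNA libraries. A further 3 columns of the sense and of the antisense data belong to no sample here and were left out. The genes w and cn are listed for embryos by FlyBase ID and the other 6 members by symbol. Positions come from RefSeq's Release 6 annotation.

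The count test was edgeR 4.0.16 under R 4.3.3, with filterByExpr, TMM factors, robust quasi-likelihood F tests, Benjamini-Hochberg adjusted p over all genes and a threshold of 0.05. The 12 embryo libraries entered 1 fit of 5 groups, so groups of 2 or 3 libraries share 1 spread, and the 9 sperm libraries another. The fits were tested on simulated counts. Alternatives were DESeq2 1.42.0, other scalings, no count filter, each batch alone, pooled batches, an additive batch term, a replicate block and leaving out each library. The members were named in every comparison, and other genes of a list where they passed the threshold within a batch, at most 5 by smallest p. Members and lists were chosen with earlier results of these data known. Exact 95% intervals cover counting error only.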

Additional observations from a re-analysis of the deposited data

Results flagged for a closer look

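The log2 fold change of cn in paternal aub over WT embryos differed between batches by 2.89 (batch 2 minus batch 1, adjusted p = 0.0163, edgeR interaction contrast). It was -0.35 in batch 2 and -3.24 in batch 1. The part of the maternal transcript level, which was highest in the same 3 WT libraries of batch 1, was not tested.

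Among 30 sets of libraries examined for a single library far from the rest, 6 had one, all in the PIWI IP libraries of seminal vesicle. Chance gives about 5% of such sets where values are continuous, a rate that does not apply to counts this sparse, so no excess is read from the 6. Sense small RNA of Hn was 11.3 CPM in library 1 and 1.92 to 2.54 CPM in the others. Sense small RNA of v was 1.33 CPM in library 2 and 0.423 to 0.538 CPM in the others. For cn the sense value of 1.27 CPM in library 4 is 3 counts, against 0.0897 to 0.214 CPM in the others. Antisense small RNA was found in a single IP library for v (library 2, 0.267 CPM), ry (library 2, 0.0534 CPM) and Hn (library 3, 0.448 CPM), each against 0 in the other 3. In these 3 sets the gap is at its largest possible share of the range whatever its size.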

How the results depend on the processing

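Of 911 values of the members under alternatives in embryos, 837 kept their direction and side of the threshold. A further 27 lost a call, 14 gained one and 29 changed sign. The other 4, all of w, which has no p, were marked for the size of their shift. They went from 2.27 ± 0.68 to 1.49 (paternal aub, batch 1) and 3.36 ± 0.83 to 2.71 (paternal aub, batch 2). Between batches in WT the shift was from -0.07 ± 1.03 to -1.09, and in the difference between batches from 1.09 ± 1.18 to 1.88. The causes were not tested, beyond what each alternative leaves out. In batch 1 the calls on cn, Pu and Hn held in 18 of 20 alternatives each and that on ry in 5 of 20. With batches pooled, cn had -2.85, Pu 0.79 and Hn 0.90, and with an additive batch term -2.27, 0.76 and 0.77, none of them called.

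Numbers of genes called moved as follows. For paternal aub over WT, 4516 in batch 1 and 2 in batch 2 became 33 with an additive batch term and 6 with batches pooled, and batch 2 alone gave 48. For maternal aub over WT, 7 became 1 with an additive batch term, 3 pooled, 11 with no count filter, 25 with DESeq2 and 211 for batch 2 alone. For paternal over maternal aub, 0 became 5 with DESeq2 and 168 for batch 2 alone. Small RNA calls of 199 (aub sperm) and 97 (piwi sperm) became 389 and 196 with DESeq2 and 648 and 367 with no count filter. With 1 library left out, counts ranged from 3545 to 5526 (paternal aub, batch 1), 1 to 3 (paternal aub, batch 2), 1 to 16 (maternal aub), 0 to 2 (paternal over maternal aub), 1932 to 4965 (batches in WT), 792 to 3611 (difference between batches), 34 to 314 (aub sperm) and 40 to 138 (piwi sperm).

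Signs changed where the difference was small, none of them called in the fit reported. With batches pooled, paternal aub over WT was -0.30 for bw and 0.23 for v, and maternal aub over WT -0.15 for Hn, -2.83 for cn and 0.21 for v. With an additive batch term, paternal aub over WT was -0.38 for bw and 0.29 for v, and maternal aub over WT -1.10 for cn. For batch 2 alone, bw was -0.09. Hn in paternal over maternal aub was -0.02 with DESeq2 and RLE factors, -0.03 on total counts and -0.01 for batch 2 alone, and bw between batches in WT was 0.01 on total counts. With 1 library left out, Hn ranged from -0.06 to 0.48 (paternal aub, batch 2), -0.06 to 0.50 (maternal aub) and -0.10 to 0.10 (paternal over maternal aub). The range of bw was -0.43 to 2.39 (paternal aub, batch 2) and -2.33 to 0.47 (batches in WT), that of cn -0.88 to 0.02 (paternal aub, batch 2) and -0.39 to 0.48 (maternal aub), and that of v -0.31 to 0.17 (paternal aub, batch 2) and -0.04 to 0.38 (paternal over maternal aub). For st the difference between batches ranged from -0.81 to 0.07, and the ry exon row in aub over WT sperm from -0.36 to 0.28.

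Libraries were treated as unpaired, since the labels tie no number to a shared batch and not every same-numbered pair had a correlation over 0.1: they were -0.064 to 0.056 in embryos and -0.069 to 0.161 in sperm. In sperm 6 of 9 such pairs were at 0.1 or more, with 0.148 to 0.161 for number 1, and not every library correlated best with its own number. Sperm pairs of different numbers ran lower, from -0.224 to 0.126. Sperm libraries of 1 number may therefore share variation that the unpaired fit leaves out. The exon rows of bw and ry were not called with a replicate block either. With a replicate block, paternal aub over WT in batch 2 had 0 calls and aub over WT sperm 304, against 2 and 199 without it. The block also ended the batch 1 call on ry (-0.63) and that on st between batches in WT (1.01), and added Hn between batches (-0.96) and in the difference between batches (-0.98). For w between batches in WT the block gave -1.09, and an additive batch term gave 2.71 for paternal aub in batch 2. Depth limits w in WT embryos, bw in all embryos and every member but bw and ry in sperm.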
